A study of Homo sapiens with 12 samples.

Results

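The genes described are those of the AP-1 transcription factor family together with DUSP1, and they were chosen by symbol: FOS, FOSB, FOSL1, FOSL2, JUN, JUNB, JUND, ATF3 and DUSP1. All 9 were found among the 63241 genes of the deposited table, each on a single row, and all 9 were among the 15614 genes with enough counts to be tested. They were measured in 12 RNA libraries from 2 human testicular germ cell tumour lines, TCam-2, a line from a seminoma, and 2102 EP, a line from an embryonal carcinoma. Cells of each line, called wild type in the labels, had been kept for 24 h with 15 µM I-BRD9, an inhibitor aimed at the BRD9 bromodomain, or with its solvent DMSO. The 4 groups, TCam-2 with I-BRD9, TCam-2 with DMSO, 2102 EP with I-BRD9 and 2102 EP with DMSO, held 3 libraries each. TCam-2 was grown in RPMI and 2102 EP in DMEM medium, so that line and medium cannot be told apart, and a single dose and time were used. Nothing in the labels beyond the word biological tells how the replicate cultures arose, so p-values measure the spread between these libraries, which may be technical. Each line stands for a single tumour.

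AP-1 is not a single protein but a set of dimers of basic leucine zipper proteins. JUN, JUNB and JUND can pair with each other or with a FOS protein, while FOS, FOSB, FOSL1 and FOSL2 need a JUN partner to bind DNA, and ATF3 joins JUN proteins or pairs with itself. Most of these genes are immediate early genes: growth factors and stress switch them on within minutes through MAP kinases, serum response factor and CREB/ATF proteins, and their short-lived transcripts then fall away. DUSP1 belongs to the same rapid response but is no transcription factor. It encodes a phosphatase that takes the phosphate off MAP kinases and so ends the signal that started it.

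The libraries held 7290335 to 10053366 estimated counts in 20858 to 22062 genes, and levels are given as CPM, counts scaled to the size of the library, where 3 counts in a library correspond to 0.297 to 0.409 CPM. Replicates correlated at 0.971 to 0.981 and differed by more than sampling noise (chi-square per degree of freedom 4.94 to 12.8), so none was a second copy of another. BRD9 itself had 122.9 ± 6.88 CPM in TCam-2 with I-BRD9 and 141.8 ± 3.62 with DMSO, and 92.6 ± 11.2 CPM in 2102 EP with I-BRD9 and 111.0 ± 11.7 with DMSO (SD, n = 3), levels that do not measure inhibition of the protein. The summed level of 6 embryonal carcinoma markers was 153 to 167 CPM in TCam-2 with I-BRD9 and 307 to 343 with DMSO, against 1153 to 1195 CPM in 2102 EP with I-BRD9 and 2548 to 2637 with DMSO. That of 6 seminoma markers was 1127 to 1315 CPM in TCam-2 with I-BRD9 and 1351 to 1849 with DMSO, and in 2102 EP it was 140 to 149.9 CPM with I-BRD9, with NANOS3 and SOX17 at 0, and 160 to 240.1 with DMSO. By these sums the lines carried the markers of their labels, and both sums were lower in every I-BRD9 library than in every DMSO library of the same line. LIN28A made up most of the embryonal carcinoma sum in TCam-2, with 93.0 ± 5.54 CPM with I-BRD9 and 218 ± 15.1 with DMSO. FOXD3 did not stand higher in 2102 EP. It had 0.0372 ± 0.064 CPM there with I-BRD9 and 1.33 ± 0.56 with DMSO, against 0.619 ± 0.47 and 1.36 ± 0.36 in TCam-2. TFAP2C made up most of the seminoma sum in TCam-2, with 994 ± 108 CPM with I-BRD9 and 1208 ± 247 with DMSO (edgeR adjusted p = 0.342). KIT went the other way there, with 49.4 ± 3.46 CPM with I-BRD9 and 26.5 ± 0.37 with DMSO (adjusted p = 0.0001435). Of 5 seminoma markers tested in TCam-2, 3 were lower and 1 higher at an adjusted p under 0.05, where 16.5% of all genes were lower and 15.3% higher.

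After I-BRD9 most of the AP-1 genes stood higher in both lines. In TCam-2, 8 of the 9 genes were called higher and none lower at an adjusted p under 0.05 (edgeR's quasi-likelihood test, adjusted by Benjamini and Hochberg over all 15614 genes), where 15.3% of all genes tested were called higher and 16.5% lower. The gene without a call was FOSL1. In 2102 EP, 8 were called higher and 1, FOSL1, was called lower, where 18.2% of all genes were called higher and 18.6% lower. The median log2 fold change of the 9 genes was 1.22 in TCam-2, against 0.0069 for all genes tested, and 1.5 in 2102 EP, against 0.00247. All I-BRD9 libraries lay above all DMSO libraries for 8 genes in TCam-2, as did 22.9% of all genes, and for none of the 9 did they lie below, as did 22.8% of all genes. In 2102 EP they lay above for 8 genes and below for 1, as did 23.1% and 23.2% of all genes. The comparisons in both lines use separate libraries but come from 1 fit over all 12, with a shared filter, scaling and estimate of spread. The genes were picked with earlier results of these data known. In bulk RNA a larger share of expressing cells and more RNA per cell cannot be told apart.

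**Figure D1:**
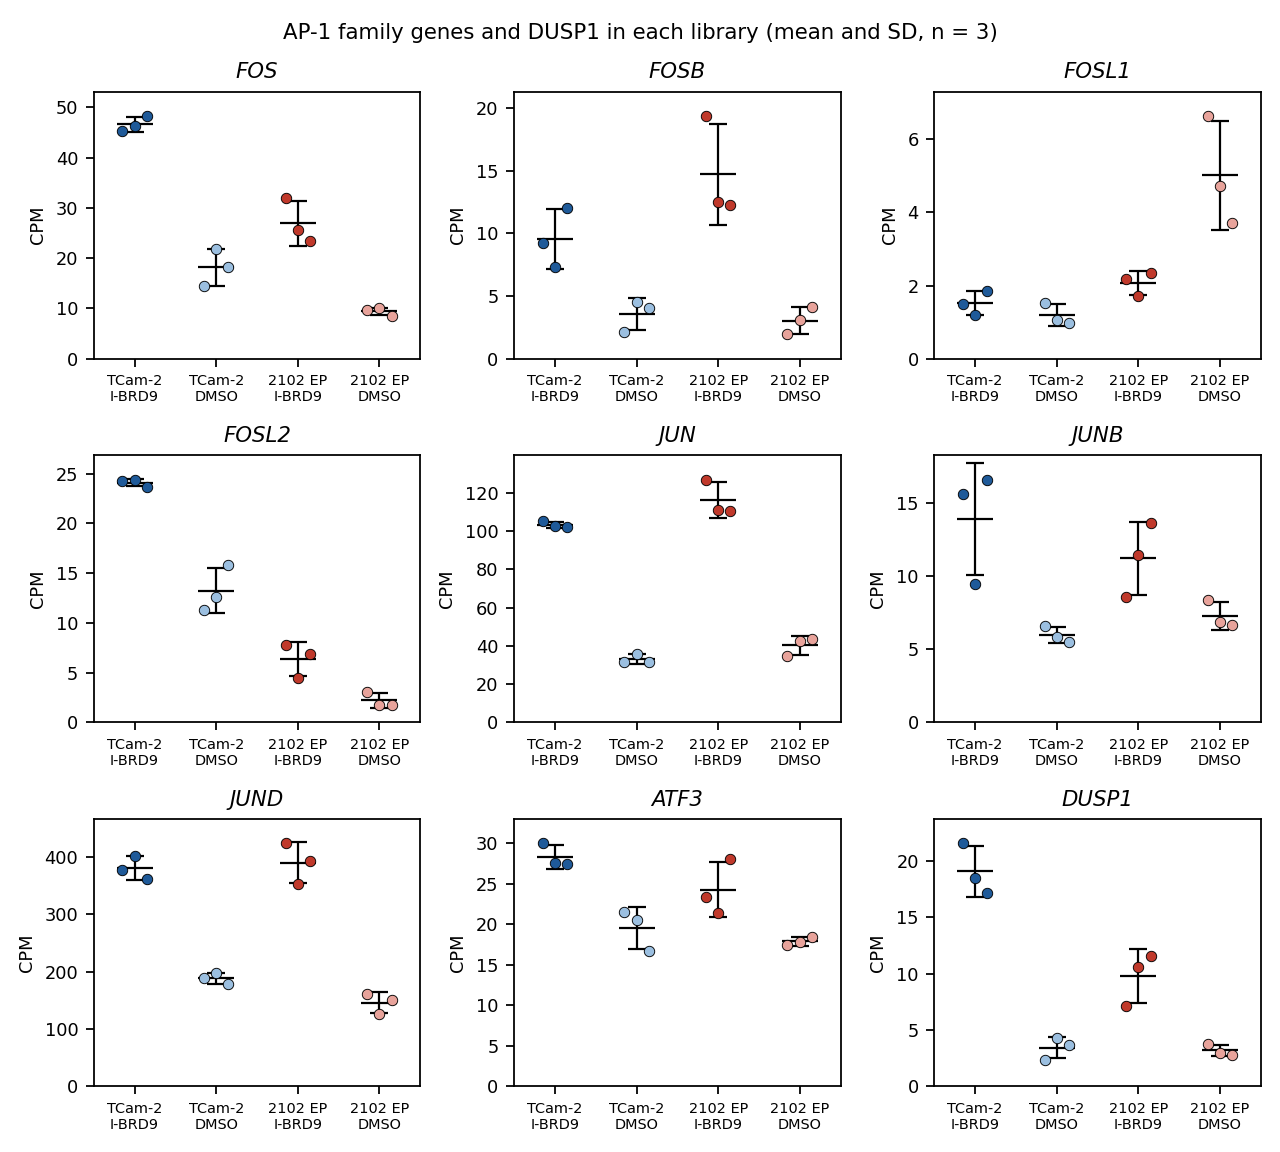
Level of each of the 9 genes in every library, in CPM on linear axes that start at 0; points are libraries, bars the mean and SD of the 3 libraries of a group. For FOS, FOSB, FOSL2, JUN, JUNB, JUND, ATF3 and DUSP1 the I-BRD9 points lie above the DMSO points of the same line, while FOSL1 lies lower with I-BRD9 in 2102 EP and overlaps between the groups in TCam-2.

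The promoters of these genes were read for elements of the immediate early response. RefSeq promoters (GRCh38.p14) were found for 8 of the 9 genes, FOSL1 being the exception, and the 250 bases before each start were searched on both strands for 4 elements known from immediate early genes. The sequences of the 5 genes that were at least 2-fold higher with a call in both lines are shown, 5′ to 3′ on the gene's strand, with the elements found in capitals. They are FOS at chr14:75278578-75278773 on the plus strand, FOSB at chr19:45467746-45467994 on the plus strand, JUN at chr1:58784096-58784125 on the minus strand, JUND at chr19:18281623-18281872 on the minus strand and DUSP1 at chr5:172771196-172771445 on the minus strand. They end where an annotated transcript begins, and for JUN, whose annotated transcripts begin farther upstream, only the site is given.
FOS: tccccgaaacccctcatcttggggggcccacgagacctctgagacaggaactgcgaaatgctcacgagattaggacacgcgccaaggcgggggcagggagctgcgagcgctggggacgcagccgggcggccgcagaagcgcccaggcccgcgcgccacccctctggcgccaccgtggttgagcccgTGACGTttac
FOSB: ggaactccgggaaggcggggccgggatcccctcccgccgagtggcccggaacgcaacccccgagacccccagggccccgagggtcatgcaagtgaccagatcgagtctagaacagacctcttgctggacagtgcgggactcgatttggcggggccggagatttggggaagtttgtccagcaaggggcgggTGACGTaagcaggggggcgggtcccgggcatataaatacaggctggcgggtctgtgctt
JUN: aggccttggggTGACATCAtgggctatttt
JUND: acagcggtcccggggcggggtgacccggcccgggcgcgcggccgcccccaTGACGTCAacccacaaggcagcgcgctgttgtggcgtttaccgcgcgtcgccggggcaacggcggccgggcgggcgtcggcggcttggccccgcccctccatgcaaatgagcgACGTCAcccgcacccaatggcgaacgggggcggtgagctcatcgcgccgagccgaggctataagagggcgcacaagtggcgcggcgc
DUSP1: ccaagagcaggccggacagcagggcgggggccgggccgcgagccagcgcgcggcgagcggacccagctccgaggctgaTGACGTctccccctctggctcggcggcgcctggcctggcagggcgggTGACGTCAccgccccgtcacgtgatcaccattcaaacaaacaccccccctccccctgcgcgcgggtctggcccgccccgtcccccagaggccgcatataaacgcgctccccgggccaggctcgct
The full cAMP response element TGACGTCA, which CREB and ATF proteins bind, was found in JUND (200 to 193 bases before the start) and DUSP1 (125 to 118), and 1.65% of 35116 promoters hold it. TGACATCA, the element through which JUN is known to act on its own gene, was found in JUN (67 to 60 bases before the start) and in 1 of the 2 promoters of ATF3 (123 to 116), and 2.37% of promoters hold it. The shorter TGACGT, which lies within TGACGTCA on both strands and was added to the search after the sequences had been read, was found in FOS (64 to 59), FOSB (60 to 55), FOSL2 (66 to 61), JUND and DUSP1, against 7.1% of all promoters. In JUND it recurs as ACGTCA, its other strand, 87 to 82 bases before the start, and in DUSP1 as TGACGT 172 to 167 bases before it. The consensus AP-1 element TGANTCA (6.57% of promoters) and the CArG box bound by serum response factor (1.16%) had no match within these windows in any of the 8 genes, which says only that these letters are not there. JUNB held none of the elements. A match is a string of letters and no evidence of binding in these cells.

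FOS (ENSG00000170345, chromosome 14, 75278774 to 75282230, plus strand, GRCh38) is the founding FOS gene, and its transcript is among the most transient of the immediate early response. Its level was 45.2, 46.3 and 48.3 CPM in TCam-2 with I-BRD9, against 14.5, 21.8 and 18.2 CPM with DMSO. In 2102 EP it was 31.9, 25.5 and 23.3 CPM with I-BRD9, against 9.61, 10.0 and 8.56 CPM with DMSO. All 3 I-BRD9 libraries of each line were therefore above the highest DMSO library of that line, and the lowest I-BRD9 library of 2102 EP was also above every TCam-2 DMSO library. FOS rose by 1.35 ± 0.14 in TCam-2 (log2 fold change ± SE, 2.56-fold, edgeR adjusted p = 1.39e-07) and by 1.51 ± 0.16 in 2102 EP (2.85-fold, adjusted p = 9.17e-08). In 2102 EP 8.03% of all genes tested changed by more than FOS in either direction.

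FOSB (ENSG00000125740, chromosome 19, 45467995 to 45475179, plus strand) encodes a FOS protein whose truncated splice form is known to accumulate after repeated stimulation. FOSB had 9.20, 7.33 and 12.1 CPM in TCam-2 with I-BRD9, against 2.12, 4.56 and 4.04 CPM with DMSO. Levels in 2102 EP were 19.4, 12.5 and 12.3 CPM with I-BRD9, against 1.94, 3.07 and 4.09 CPM with DMSO. The groups did not overlap in either line, although replicates of FOSB were more spread than those of FOS. FOSB rose by 1.40 ± 0.29 in TCam-2 (2.65-fold, edgeR adjusted p = 0.000845) and by 2.28 ± 0.30 in 2102 EP (4.84-fold, adjusted p = 4.18e-06), the largest log2 fold change of the 9 genes in that line. FOSB lies within ERCC1, a DNA repair gene on the opposite strand with 94 to 203 counts per library, and the use of strand in counting is not given, so that a share of reads cannot be assigned with certainty.

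FOSL1 (ENSG00000175592, chromosome 11, 65892049 to 65900573, minus strand) encodes FRA1, a FOS protein that lacks the strong activation domain of FOS and is known from invasive carcinomas. It was the least abundant of the 9 genes in CPM in every group but 2102 EP with DMSO. FOSL1 had 1.48, 1.20 and 1.86 CPM in TCam-2 with I-BRD9, against 1.53, 1.06 and 0.980 CPM with DMSO, and these groups overlapped. In 2102 EP it had 2.18, 1.70 and 2.34 CPM with I-BRD9, against 6.64, 4.72 and 3.71 CPM with DMSO, so that the lowest DMSO library was above the highest I-BRD9 library. FOSL1 fell by 1.28 ± 0.34 on the log2 scale in 2102 EP (edgeR adjusted p = 0.00481), a call that held in each of 19 alternatives with adjusted p-values of at most 0.0491. In TCam-2 its log2 fold change was 0.34 ± 0.40 (95% interval −0.48 to 1.16, adjusted p = 0.558). These values rest on 41 counts over the 3 TCam-2 libraries with I-BRD9 and 31 with DMSO, and on 54 counts over the 3 2102 EP libraries with I-BRD9 and 127 with DMSO.

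FOSL2 (ENSG00000075426, chromosome 2, 28392448 to 28417312, plus strand) encodes FRA2, the related FOS protein with roles in bone and cartilage. FOSL2 had 24.2, 24.4 and 23.7 CPM in TCam-2 with I-BRD9, against 11.3, 12.6 and 15.8 CPM with DMSO. For 2102 EP the values were 7.77, 4.51 and 6.92 CPM with I-BRD9, against 3.09, 1.77 and 1.79 CPM with DMSO. Within each line every I-BRD9 library was above every DMSO library, and every TCam-2 library, with or without the compound, was above every 2102 EP library. FOSL2 rose by 0.86 ± 0.19 in TCam-2 (1.82-fold, edgeR adjusted p = 0.00123) and by 1.5 ± 0.26 in 2102 EP (2.83-fold, adjusted p = 7.89e-05).

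JUN (ENSG00000177606, chromosome 1, 58780788 to 58784327, minus strand) encodes the main activating JUN protein, a target of the JNK kinases. JUN had 105, 103 and 102 CPM in TCam-2 with I-BRD9, against 31.8, 36.0 and 31.4 CPM with DMSO. The 2102 EP libraries had 127, 111 and 111 CPM with I-BRD9, against 34.8, 42.4 and 43.5 CPM with DMSO. The lowest I-BRD9 library of either line, at 101.9 CPM, was far above the highest DMSO library, at 43.5 CPM. JUN rose by 1.64 ± 0.10 in TCam-2 (3.12-fold, edgeR adjusted p = 1.92e-11) and by 1.53 ± 0.10 in 2102 EP (2.89-fold, adjusted p = 4.43e-11).

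JUNB (ENSG00000171223, chromosome 19, 12791496 to 12793315, plus strand) encodes a JUN protein that is a weaker activator and can restrain JUN at some targets. JUNB had 15.6, 9.49 and 16.6 CPM in TCam-2 with I-BRD9, against 6.61, 5.84 and 5.51 CPM with DMSO. Levels in 2102 EP were 8.59, 11.4 and 13.6 CPM with I-BRD9, against 8.35, 6.84 and 6.65 CPM with DMSO, where the lowest I-BRD9 library only just cleared the highest DMSO library. JUNB rose by 1.22 ± 0.22 in TCam-2 (2.32-fold, edgeR adjusted p = 0.000164) and by 0.63 ± 0.22 in 2102 EP (1.54-fold, adjusted p = 0.0285). In 2102 EP the call ended on leaving out I-BRD9 replicate 2 (adjusted p = 0.0654) or 3 (0.14) or DMSO replicate 2 (0.0956) or 3 (0.0888), and with consecutive library codes as a block (0.0663). JUNB lies within HOOK2, a gene on the opposite strand with 69 to 348 counts per library, and is uncertain in the same way as FOSB.

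JUND (ENSG00000130522, chromosome 19, 18279760 to 18281622, minus strand) encodes the JUN protein that is made at rest and varies least with growth signals. JUND had 378, 403 and 362 CPM in TCam-2 with I-BRD9, against 188, 197 and 179 CPM with DMSO. In 2102 EP it had 424, 353 and 393 CPM with I-BRD9, against 161, 127 and 151 CPM with DMSO. The I-BRD9 libraries of the lines overlapped, while with DMSO the lowest TCam-2 library was above the highest 2102 EP library. JUND rose by 1.02 ± 0.09 in TCam-2 (2.02-fold, edgeR adjusted p = 7.64e-09) and by 1.42 ± 0.09 in 2102 EP (2.67-fold, adjusted p = 3.47e-11).

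ATF3 (ENSG00000162772, chromosome 1, 212565334 to 212620777, plus strand) encodes a stress-induced CREB/ATF protein that represses as a homodimer. ATF3 had 30.0, 27.5 and 27.4 CPM in TCam-2 with I-BRD9, against 21.5, 20.5 and 16.7 CPM with DMSO. For 2102 EP the values were 23.3, 21.4 and 28.0 CPM with I-BRD9, against 17.4, 17.8 and 18.4 CPM with DMSO. The groups did not overlap, but the steps were the smallest of those called among the 9 genes. ATF3 rose by 0.53 ± 0.13 in TCam-2 (1.45-fold, edgeR adjusted p = 0.00356) and by 0.44 ± 0.14 in 2102 EP (1.36-fold, adjusted p = 0.0139), and 45.0% of all genes in 2102 EP changed by more. Leaving out I-BRD9 replicate 3 ended the 2102 EP call (adjusted p = 0.0878).

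DUSP1 (ENSG00000120129, chromosome 5, 172768090 to 172771195, minus strand), the MAP kinase phosphatase gene, had 21.6, 18.5 and 17.2 CPM in TCam-2 with I-BRD9, against 2.36, 4.25 and 3.67 CPM with DMSO. The 2102 EP libraries had 7.09, 10.6 and 11.6 CPM with I-BRD9, against 3.78, 2.95 and 2.81 CPM with DMSO. Within each line the groups did not overlap. With DMSO the lines overlapped, and with I-BRD9 every TCam-2 library was above every 2102 EP library. DUSP1 rose by 2.47 ± 0.23 in TCam-2 (5.53-fold, edgeR adjusted p = 1.92e-08), where 2.54% of all genes changed by more, and by 1.62 ± 0.24 in 2102 EP (3.08-fold, adjusted p = 1.31e-05). An antisense gene that overlaps it had 0 to 5 counts per library.

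Whether the lines responded to different degrees was tested as the difference of the log2 fold changes, TCam-2 minus 2102 EP. Of the 9 genes 1 was called with a more positive response in TCam-2 and 1 with a more negative response, where 5.9% and 7.19% of all genes were. FOSL1 was the first, with a difference of 1.62 ± 0.52 (SE; edgeR adjusted p = 0.0418), and JUND the second, with −0.40 ± 0.13 (adjusted p = 0.0365). The FOSL1 call was lost in 13 of 18 alternatives (adjusted p up to 0.131), 9 of them the omission of a single library: any of 2102 EP with I-BRD9 replicates 1 (0.0595), 2 (0.0901) and 3 (0.0506), 2102 EP with DMSO replicates 1 (0.131) and 2 (0.066), TCam-2 with I-BRD9 replicates 1 (0.0733) and 3 (0.114), and TCam-2 with DMSO replicates 2 (0.094) and 3 (0.0889). The JUND call was lost without TCam-2 I-BRD9 replicate 1 (0.068) or 3 (0.0832), TCam-2 DMSO replicate 1 (0.059) or 2 (0.0952), 2102 EP I-BRD9 replicate 3 (0.0534) or 2102 EP DMSO replicate 2 (0.116).

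For the other 7 genes no difference between the lines was called, and the intervals show what the data leave possible. The intervals are for each gene alone, while calls are adjusted over all genes tested. An interval and a call can therefore differ, as for DUSP1. DUSP1 had a difference of 0.85 (95% interval 0.15 to 1.54, edgeR adjusted p = 0.105), and FOSB one of −0.87 (−1.75 to 0.00623, adjusted p = 0.197). The interval of FOSL2 ran from −1.30 to 0.03 and that of JUNB from −0.05 to 1.24. For JUN it was narrow, −0.18 to 0.40, for ATF3 −0.30 to 0.49 and for FOS −0.59 to 0.28. The median difference over the 9 genes was 0.09, against −0.01 over all genes tested.

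**Figure D2:**
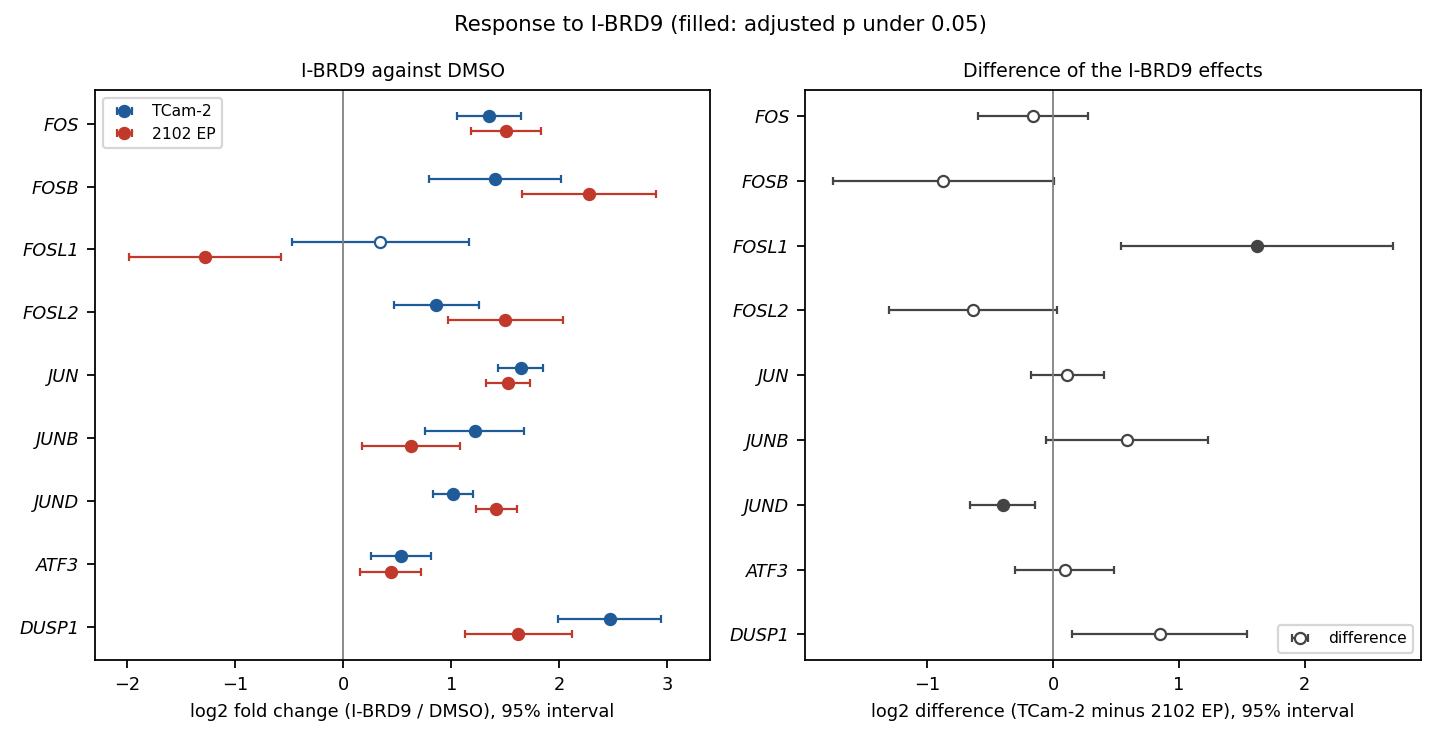
Left, log2 fold change of each gene with I-BRD9 against DMSO in TCam-2 (blue) and 2102 EP (red); right, the difference of these values, TCam-2 minus 2102 EP. Bars are 95% intervals from the model and filled points have an adjusted p under 0.05; on the left every gene but FOSL1 has filled points to the right of 0 in both lines, while FOSL1 lies at −1.28 in 2102 EP and at 0.34, not called, in TCam-2, and on the right FOSL1 (1.62) and JUND (−0.40) are filled.

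Because the kit reads transcript ends, a transcript gives about the same count whatever its length, and CPM were summed over genes without division by length. The 3 JUN genes together had 498.0 ± 17.4 CPM in TCam-2 with I-BRD9 and 227.1 ± 11.6 with DMSO, and 517.5 ± 41.8 CPM in 2102 EP with I-BRD9 and 193.5 ± 15.4 with DMSO (SD, n = 3). The 4 FOS genes together had 81.7 ± 3.61 CPM in TCam-2 with I-BRD9 and 36.2 ± 5.81 with DMSO, and 50.1 ± 9.62 CPM in 2102 EP with I-BRD9 and 19.7 ± 1.57 with DMSO. JUN transcripts thus outnumbered FOS transcripts in all groups, by a ratio of summed CPM of 6.11 ± 0.47 in TCam-2 with I-BRD9 and 6.39 ± 1.14 with DMSO, and of 10.5 ± 1.23 in 2102 EP with I-BRD9 and 9.88 ± 1.07 with DMSO. The ratio differed by less than the replicate spread between I-BRD9 and DMSO in both lines.

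Within this pool JUND made up most of the counts. Its share of the summed CPM of the 7 FOS and JUN genes was 65.7 ± 1.97% in TCam-2 with I-BRD9 and 71.5 ± 1.78% with DMSO, groups that did not overlap, and 68.7 ± 1.07% in 2102 EP with I-BRD9 and 68.3 ± 3.35% with DMSO, groups that did. JUN had 17.8 ± 0.46% in TCam-2 with I-BRD9 and 12.5 ± 0.32% with DMSO, groups that did not overlap, and 20.5 ± 0.85% in 2102 EP with I-BRD9 and 19.0 ± 3.23% with DMSO, groups that did. FOSL1 had 0.262 ± 0.063% in TCam-2 with I-BRD9 and 0.455 ± 0.13% with DMSO, and 0.365 ± 0.046% in 2102 EP with I-BRD9 and 2.35 ± 0.63% with DMSO, groups that did not overlap in either line. A share also moves with the other genes of the sum, and the level of FOSL1 itself was not called in TCam-2. FOSL2 had 4.16 ± 0.04% in TCam-2 with I-BRD9 and 5.05 ± 1.00% with DMSO, groups that did not overlap. In 2102 EP it had 1.12 ± 0.22% with I-BRD9 and 1.03 ± 0.30% with DMSO, groups that did. FOSB had 2.57 ± 0.49% in 2102 EP with I-BRD9 and 1.43 ± 0.52% with DMSO. JUNB had 2.00 ± 0.55% in 2102 EP with I-BRD9 and 3.415 ± 0.34% with DMSO. The shares of FOSB and JUNB did not overlap between these groups in 2102 EP, but did in TCam-2. No test was run on these shares.

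**Figure D3:**
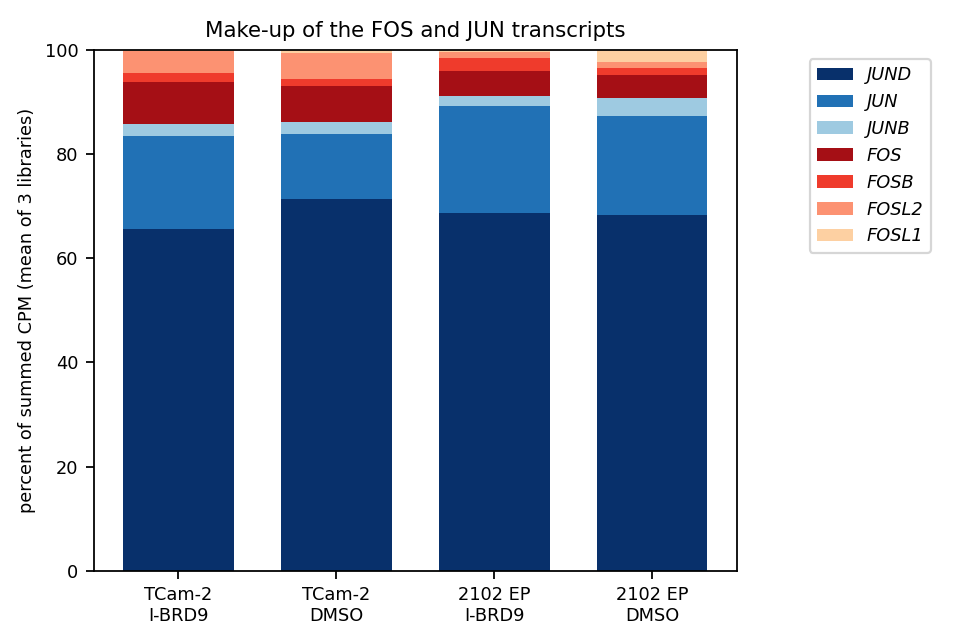
Mean share of each FOS and JUN gene in their summed CPM, in percent (stacked bars from 0 to 100, 3 libraries per group). JUND (darkest blue) takes 65.7 to 71.5% in every group, JUN takes more in TCam-2 with I-BRD9 (17.8%) than with DMSO (12.5%), and the FOSL1 band (2.35% in 2102 EP with DMSO) is close to absent with I-BRD9 (0.365%).

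The lines were next compared with each other. With I-BRD9, 3 of the 9 genes were called higher in TCam-2 than in 2102 EP and 1 lower, where 31.1% of all genes were called higher and 31.1% lower. FOSL2 stood highest over 2102 EP (log2 fold change 1.93 ± 0.21, 3.80-fold, edgeR adjusted p = 2.93e-08), followed by DUSP1 (0.96 ± 0.20, adjusted p = 0.000313) and FOS (0.79 ± 0.14, adjusted p = 3.26e-05). FOSB was lower in TCam-2 (−0.62 ± 0.26, adjusted p = 0.0449), a call lost without TCam-2 I-BRD9 replicate 1 (0.107) or 2 (0.173), TCam-2 DMSO replicate 3 (0.053), 2102 EP I-BRD9 replicate 1 (0.206) or 2102 EP DMSO replicate 2 (0.0557). JUNB, not called here (0.31, adjusted p = 0.205), was called higher without TCam-2 I-BRD9 replicate 2 (0.51, adjusted p = 0.0424). For JUND the log2 fold change was −0.03, with a 95% interval of −0.22 to 0.15.

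With DMSO 3 genes were called higher in TCam-2 than in 2102 EP and 2 lower, where 31.7% of all genes were called higher and 30.8% lower. FOSL2 (2.56 ± 0.24, 5.91-fold, edgeR adjusted p = 4.05e-09), FOS (0.95 ± 0.16, adjusted p = 1.96e-05) and JUND (0.37 ± 0.09, adjusted p = 0.00119) were higher in TCam-2. FOSL1 was 4.19-fold lower in TCam-2 (−2.07 ± 0.36, adjusted p = 3.21e-05), and JUN was lower by a small step (−0.28 ± 0.10, adjusted p = 0.0218) with overlapping libraries. The JUN call was lost without TCam-2 DMSO replicate 1 (0.0725) or 3 (0.0769) or 2102 EP DMSO replicate 2 (0.0759) or 3 (0.0986). DUSP1 had a log2 fold change of 0.11 between the lines with DMSO (95% interval −0.44 to 0.66), beside 0.96 with I-BRD9, and the difference of these values is that of the responses (0.85, adjusted p = 0.105). Both comparisons of the lines and those of the compound share libraries, so these values are not independent of the responses given above.

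**Figure D4:**
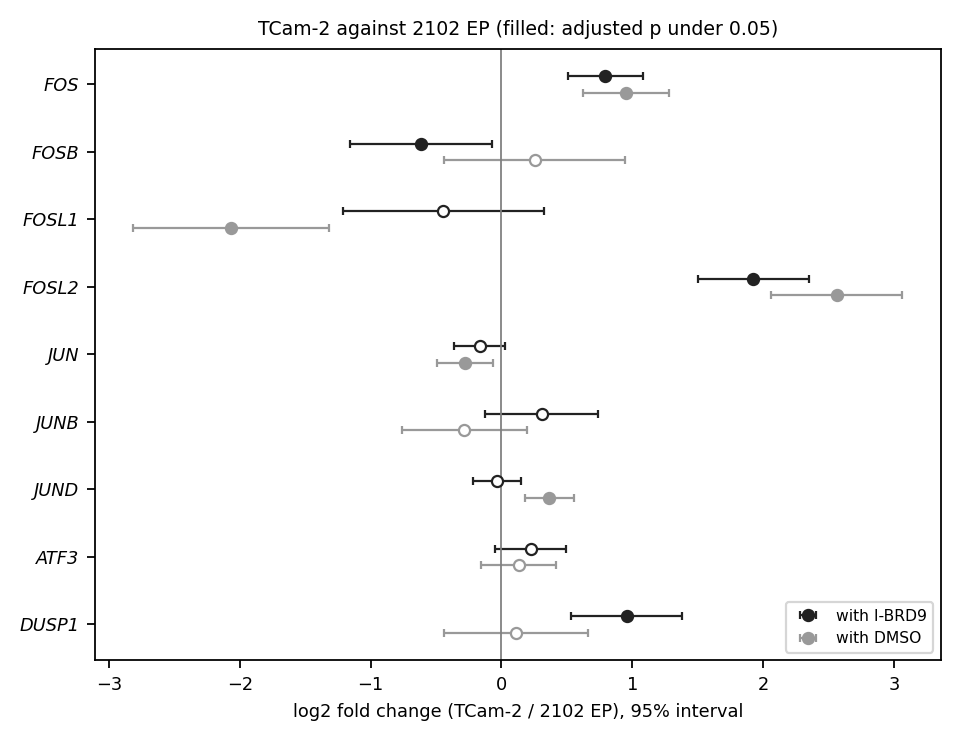
Log2 fold change of each gene in TCam-2 against 2102 EP, with I-BRD9 (black) and with DMSO (grey); bars are 95% intervals and filled points have an adjusted p under 0.05. FOSL2 lies far to the right in both (1.93 with I-BRD9, 2.56 with DMSO), FOSL1 lies at −0.45, not called, with I-BRD9 and at −2.07 with DMSO, and DUSP1 lies at 0.96 with I-BRD9 and at 0.11, not called, with DMSO.

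Over the 4 groups the genes fell into different orders of level. FOS had 46.6 ± 1.55 CPM in TCam-2 with I-BRD9 and 26.9 ± 4.46 in 2102 EP with I-BRD9, then 18.2 ± 3.62 in TCam-2 with DMSO and 9.40 ± 0.75 in 2102 EP with DMSO, and no neighbours in this order overlapped. FOSL2 followed the lines first, with 24.1 ± 0.38 and 13.3 ± 2.30 CPM in TCam-2 with I-BRD9 and with DMSO, against 6.40 ± 1.69 and 2.22 ± 0.76 CPM in 2102 EP. JUN and JUND followed the compound first: JUN had 103 ± 1.65 CPM in TCam-2 and 116 ± 9.26 in 2102 EP with I-BRD9, against 33.03 ± 2.57 in TCam-2 and 40.2 ± 4.75 in 2102 EP with DMSO. JUND had 381 ± 20.7 CPM in TCam-2 and 390.1 ± 35.4 in 2102 EP with I-BRD9, which overlapped, against 188 ± 9.10 in TCam-2 and 146 ± 17.6 in 2102 EP with DMSO, which did not. FOSB was highest in 2102 EP with I-BRD9 (9.53 ± 2.39 CPM in TCam-2 and 14.7 ± 4.02 in 2102 EP), above both DMSO groups (3.58 ± 1.28 in TCam-2 and 3.03 ± 1.07 in 2102 EP), which overlapped. JUNB had 13.9 ± 3.85 CPM in TCam-2 and 11.2 ± 2.52 in 2102 EP with I-BRD9, which overlapped, against 5.99 ± 0.56 in TCam-2 and 7.28 ± 0.93 in 2102 EP with DMSO, which just did not. ATF3 had the flattest order, with 28.3 ± 1.46 CPM in TCam-2 and 24.3 ± 3.38 in 2102 EP with I-BRD9, and 19.5 ± 2.55 in TCam-2 and 17.9 ± 0.51 in 2102 EP with DMSO, and every pair of neighbours overlapped. DUSP1 had 19.1 ± 2.25 CPM in TCam-2 and 9.77 ± 2.37 in 2102 EP with I-BRD9, against 3.43 ± 0.97 in TCam-2 and 3.18 ± 0.52 in 2102 EP with DMSO, the last being neighbours that overlapped. FOSL1 alone had its highest mean, 5.02 ± 1.49 CPM, in a DMSO group, that of 2102 EP.

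The wider immediate early response, with the 9 genes left out, moved in both directions. Of 25 such genes tested 10 were called higher and 5 lower in TCam-2 (median log2 fold change 0.68), and 10 higher and 5 lower in 2102 EP (median 0.44). Over all genes tested, as given above, 15.3% were called higher and 16.5% lower in TCam-2, and 18.2% higher and 18.6% lower in 2102 EP, and the counts of this list and of the lists that follow are to be read against these shares. A gene of any list could be tested in both lines through its counts in 1 line. With only the 6 libraries of 2102 EP, 21 of the 25 genes were tested, 9 called higher and 5 lower. With only the 6 of TCam-2, 24 were tested, 12 called higher and 5 lower. In TCam-2 the largest changes were those of KLF4, a pluripotency-linked zinc finger factor (−2.38 ± 0.33, edgeR adjusted p = 6.59e-06), CSRNP1 (1.86 ± 0.17), GADD45B, a stress sensor upstream of p38 and JNK (1.82 ± 0.13), and NR4A3, an orphan nuclear receptor gene (−1.68 ± 0.49). The NR4A3 call was lost without TCam-2 I-BRD9 replicate 2 (adjusted p = 0.054) or 3 (0.0667) or TCam-2 DMSO replicate 2 (0.0723), and leaving out any 1 of these libraries left 3 genes of the list called lower. In 2102 EP they were those of BTG2, an antiproliferative gene (2.56 ± 0.27), KLF4 (−2.10 ± 0.36), RHOB, a small GTPase gene (2.03 ± 0.15), and KLF2, which had 1.09 ± 0.19 CPM with I-BRD9 and 0.116 ± 0.11 CPM with DMSO, a mean under that of 3 counts. EGR1, a zinc finger gene of the same response and a serum response factor target, was chosen after its values were seen. It rose by 1.05 ± 0.09 in TCam-2 and by 1.47 ± 0.10 in 2102 EP, while the zinc finger factor KLF4 fell in both lines, as given above.

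Genes known as AP-1 targets also moved in both directions. Of 17 tested, 5 were called higher and 7 lower in TCam-2 (median −0.43), and 4 higher and 9 lower in 2102 EP (median −0.47), where 15.3% and 16.5% of all genes were called higher and lower in TCam-2 and 18.2% and 18.6% in 2102 EP. The number called lower in 2102 EP was 6 without 2102 EP DMSO replicate 1 and 7 without 2102 EP I-BRD9 replicate 1 or 2. In TCam-2 the alternatives gave 4 to 6 called higher and 7 to 8 lower. HBEGF, an EGF-like growth factor gene, had 28.0 ± 2.15 CPM in TCam-2 with I-BRD9 and 7.05 ± 0.52 with DMSO, and 28.7 ± 2.07 CPM in 2102 EP with I-BRD9 and 8.26 ± 0.52 with DMSO, and it rose by 1.99 ± 0.14 in TCam-2 and by 1.79 ± 0.14 in 2102 EP. TGFB1, a growth factor gene with 2.43 ± 0.40 CPM in TCam-2 with I-BRD9 and 0.550 ± 0.65 with DMSO, rose in TCam-2 (2.14 ± 0.51) and in 2102 EP (1.69 ± 0.39). CCL2, a chemokine gene, fell in TCam-2 (−2.75 ± 0.44) and in 2102 EP (−1.70 ± 0.33), and SPP1, the osteopontin gene, fell in 2102 EP (−1.78 ± 0.09). In TCam-2 CCL2 had 0.441 ± 0.08 CPM with I-BRD9, near the level of 3 counts, and 3.08 ± 0.94 with DMSO. VIM, which encodes the intermediate filament protein vimentin, moved in opposite directions, with 17.8 ± 2.25 CPM in TCam-2 with I-BRD9 and 93.9 ± 8.25 with DMSO, and 404.4 ± 25.0 CPM in 2102 EP with I-BRD9 and 147.6 ± 4.33 with DMSO. Its responses differed between the lines by −3.86 ± 0.13 (edgeR adjusted p = 2.57e-15).

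Of 8 other dual-specificity phosphatase genes tested, relatives of DUSP1, 1 was called higher and 4 lower in TCam-2 (median −0.51), where 15.3% of all genes were called higher and 16.5% lower. In 2102 EP 1 was called higher and 4 lower (median −0.46), where 18.2% of all genes were called higher and 18.6% lower. DUSP4, a nuclear phosphatase of ERK, had 3.88 ± 1.19 CPM in TCam-2 with I-BRD9 and 20.4 ± 1.66 with DMSO (−2.38 ± 0.22, edgeR adjusted p = 1.96e-08), and 2.16 ± 0.37 CPM in 2102 EP with I-BRD9 and 5.36 ± 1.04 with DMSO (−1.32 ± 0.26, adjusted p = 0.000362). DUSP6, the cytoplasmic ERK phosphatase, fell by 2.22 ± 0.42 in TCam-2, DUSP9 by 1.29 ± 0.31 and DUSP7 by 1.17 ± 0.35, the last a call lost without TCam-2 I-BRD9 replicate 1 (adjusted p = 0.0538) or TCam-2 DMSO replicate 3 (0.0705). The level of DUSP6 in TCam-2 was low, 0.917 ± 0.57 CPM with I-BRD9 and 4.27 ± 2.29 with DMSO. In 2102 EP DUSP7 fell by 2.15 ± 0.34, DUSP6 by 1.01 ± 0.33 and DUSP14 rose by 0.73 ± 0.14. The 2102 EP call of DUSP6 was lost without 2102 EP I-BRD9 replicate 2 (0.0565) or 3 (0.0535) or 2102 EP DMSO replicate 2 (0.0772). The gene called higher in TCam-2 was DUSP8 (0.53 ± 0.18, adjusted p = 0.0262), and no gene of the list was called higher there without TCam-2 I-BRD9 replicate 1 or 2 or TCam-2 DMSO replicate 2.

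Of 14 other basic leucine zipper genes that can pair with JUN or FOS proteins or bind the same elements, 3 were called higher and 1 lower in TCam-2 (median 0.05; all genes 15.3% and 16.5%), and 4 higher and 5 lower in 2102 EP (median −0.24; all genes 18.2% and 18.6%). In TCam-2 the called members together were about as frequent as called genes in the whole table. JDP2, a repressive JUN partner, had 136 ± 8.90 CPM in TCam-2 with I-BRD9 and 76.3 ± 5.39 with DMSO and rose by 0.83 ± 0.10 (edgeR adjusted p = 7.34e-07). Levels in 2102 EP were 34.5 ± 3.82 CPM with I-BRD9 and 38.1 ± 4.34 with DMSO, and its responses differed between the lines by 0.98 ± 0.15 (adjusted p = 4.88e-05). ATF7 rose in TCam-2 (0.69 ± 0.17) and in 2102 EP (0.91 ± 0.17), and MAFK, a small MAF gene, rose in TCam-2 (0.66 ± 0.12). In 2102 EP MAF rose by 1.64 ± 0.51, while CREB5 fell by 1.24 ± 0.16. The MAF call was lost without 2102 EP DMSO replicate 3 (adjusted p = 0.0697). The 1 gene called lower in TCam-2, BATF3 (−0.48 ± 0.18, adjusted p = 0.0456), was not called in 10 of 19 alternatives, among them the fits without TCam-2 I-BRD9 replicate 1 (0.111) or 2 (0.172), TCam-2 DMSO replicate 1 (0.152) or 2 (0.0855) or 2102 EP DMSO replicate 1 (0.0529).

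Of 25 kinase and serum response factor genes upstream of AP-1, 4 were called higher and 2 lower in TCam-2 (median −0.0024; all genes 15.3% and 16.5%), and 4 higher and 4 lower in 2102 EP (median 0.09; all genes 18.2% and 18.6%). These counts are near the shares over all genes and are no result about the list. MAPK8, the JNK1 gene, rose by 0.76 ± 0.16 in TCam-2 (edgeR adjusted p = 0.000685), and RPS6KA5, the MSK1 kinase gene with shared reads in some libraries, fell by 1.07 ± 0.17. RPS6KA1 (0.65 ± 0.20, adjusted p = 0.0167) lost its call without TCam-2 I-BRD9 replicate 1 (0.0709) or 3 (0.0668) or TCam-2 DMSO replicate 1 (0.0921), and MRTFA (0.55 ± 0.20, adjusted p = 0.0393) in 11 of 19 alternatives (up to 0.215). In 2102 EP MAPK13, a p38 gene at 0.500 ± 0.43 CPM with I-BRD9 and 1.76 ± 0.12 with DMSO, fell by 1.9 ± 0.43, MAPK3, the ERK1 gene, by 0.97 ± 0.16 and MAP2K6 by 0.77 ± 0.17, and RPS6KA2 rose by 0.74 ± 0.17. Leaving out TCam-2 I-BRD9 replicate 2 or 3 or TCam-2 DMSO replicate 1 or 3 left 2 genes called higher in TCam-2, and leaving out 2102 EP I-BRD9 replicate 1 or 2 or 2102 EP DMSO replicate 1 left 2 called higher in 2102 EP.

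Of 6 genes of ubiquitin ligases that degrade JUN proteins, 1 was called higher and none lower in TCam-2 (median −0.04), and none higher and 3 lower in 2102 EP (median −0.31), where 15.3% and 16.5% of all genes were called higher and lower in TCam-2 and 18.2% and 18.6% in 2102 EP. In TCam-2 the count is near the share over all genes. DET1 had 0 CPM in both TCam-2 groups and was tested only through its counts in 2102 EP, so its log2 fold change of 0 enters the TCam-2 median. With only the 6 TCam-2 libraries, 5 genes were tested, 1 called higher and 1 lower. DDB1, an adaptor of the CUL4 ligases, had 432 ± 52.4 CPM in TCam-2 with I-BRD9 and 264 ± 25.7 with DMSO (0.71 ± 0.09, edgeR adjusted p = 3.12e-06). In 2102 EP it had 110.4 ± 11.6 CPM with I-BRD9 and 133 ± 2.75 with DMSO (−0.27 ± 0.10, adjusted p = 0.0331), and CUL4A fell by 0.64 ± 0.12 and COP1 by 0.54 ± 0.18. The number called lower in 2102 EP was 1 without 2102 EP I-BRD9 replicate 1 or without 2102 EP DMSO replicate 1 or 2, where COP1 (adjusted p = 0.123, 0.114 and 0.0841) and DDB1 (0.181, 0.108 and 0.0738) were not called, and DDB1 was not called without 2102 EP DMSO replicate 3 (0.0701) either. With only the 6 2102 EP libraries, 6 genes were tested and 1 was called lower, COP1 and DDB1 not being called. DDB1 also lost its 2102 EP call with upper-quartile scaling, and COP1 with consecutive library codes as a block. In TCam-2, 2 genes were called lower without TCam-2 I-BRD9 replicate 1 and 1 without 2102 EP I-BRD9 replicate 1.

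**Figure D5:**
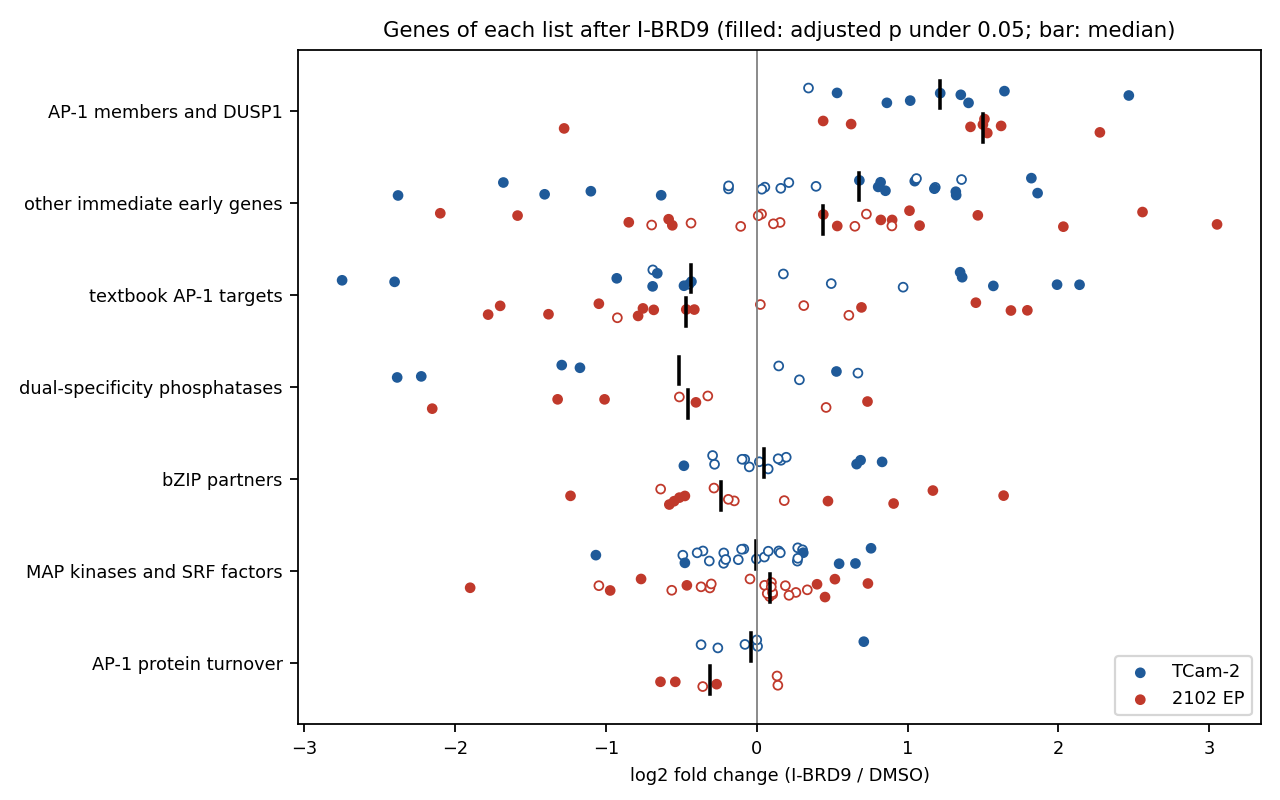
Log2 fold change with I-BRD9 against DMSO of every tested gene in each list, TCam-2 (blue) above 2102 EP (red); filled points have an adjusted p under 0.05 and the black bar is the median of a list, with points spread vertically only for legibility. The medians of the AP-1 genes and DUSP1 (1.22 in TCam-2, 1.5 in 2102 EP) lie to the right of those of the other lists, and those of the known AP-1 targets (−0.43 and −0.47) and of the other dual-specificity phosphatases (−0.51 and −0.46) lie left of 0.

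Likeness between genes was measured as the root mean square difference of centred log2 CPM over the 12 libraries, for which 0 means the same profile. Among the 9 genes JUNB and ATF3 (0.327) and JUN and JUND (0.329) were closest and FOSL1 and FOSL2 (1.94) farthest apart. Among 9557 other genes the profile nearest to FOS was that of ITGA3, an integrin gene (0.175), nearest to JUND that of PNPLA2, a lipase gene (0.151), and nearest to JUN that of AAMDC (0.19). FOSL2 was nearest to MYO6, a myosin gene (0.249), FOSL1 to JAZF1 (0.252), JUNB to MAP1LC3B, an autophagy gene with shared reads (0.231), and DUSP1 to H2BC21, a histone gene with shared reads (0.3). Nearest to FOSB were PIK3R3, a gene with shared reads, and MAPK8IP2, a JNK scaffold gene, each at 0.416, while among the 9 genes JUN was at 0.4. The 12 libraries share lines and treatment, so the measure describes profiles over 4 groups and no more.

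Other measures of the libraries are given beside these results. In TCam-2 the fibroblast and stromal sums did not overlap between I-BRD9 and DMSO, while the other measures did. In 2102 EP none of these measures overlapped between I-BRD9 and DMSO. Mitochondrial transcripts made up 6.07 to 7.76% of counts in TCam-2 with I-BRD9 and 7.03 to 7.40% with DMSO, and 10.8 to 11.4% in 2102 EP with I-BRD9 and 8.21 to 10.1% with DMSO. Their part in the results was not tested. Summed CPM of 7 blood and immune markers were 1.39 to 2.37 in TCam-2 with I-BRD9 and 1.49 to 2.84 with DMSO, and 2.78 to 4.40 in 2102 EP with I-BRD9 and 1.37 to 2.17 with DMSO, with CD3E and HBB at 0 in all groups. For 7 fibroblast and stromal markers the sums were 89.7 to 136 CPM in TCam-2 with I-BRD9 and 191 to 198 with DMSO, and 133 to 157 CPM in 2102 EP with I-BRD9 and 230.3 to 257 with DMSO, and for 7 testis somatic markers 27.4 to 30.9 CPM in TCam-2 with I-BRD9 and 20.7 to 28.1 with DMSO, and 25.0 to 36.5 CPM in 2102 EP with I-BRD9 and 14.9 to 20.7 with DMSO.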

How the data were processed

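RNA of 12 samples was sequenced from transcript ends with the QuantSeq 3′ kit of Lexogen, as the labels' protocols state. For each gene and library the authors deposited an estimated count that Salmon (1.9.0) had computed. The submitters' processing notes name GRCh38 and also list STAR (2.7.11b), Trim Galore, DESeq2 and R (4.2.0). Which annotation was counted, and whether strand was used, is not given in the sources used here. Counts that were not whole (tolerance 0.01) were read as holding reads that several genes share, as in 1 library for FOS, 1 for FOSB and 2 for JUN.

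After rounding, the counts were analysed in R 4.3.3 with edgeR 4.0.16: TMM scaling, filterByExpr with the 4 groups (15614 genes kept), and 1 robust quasi-likelihood model with 4 group means over the 12 libraries (8 residual degrees of freedom, common biological coefficient of variation 0.127). The Benjamini-Hochberg adjustment ran over all genes within each of 5 comparisons, and genes were called at an adjusted p under 0.05. CPM are scaled by TMM, ± beside CPM is the SD over 3 libraries, and ± beside a log2 fold change its SE from the model. Alternatives were no filter, upper-quartile scaling, DESeq2 1.42.0, limma voom 3.58.1, blocks for replicate numbers or consecutive library codes, fits on the 6 libraries compared, and leaving out each library. The code was tested on simulated counts. Levels set by 3 counts cover counting error only.

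The 9 genes and all lists were chosen with earlier results of these data known. From each list the text names up to 4 called genes per line with the largest changes, and any gene of lists with fewer than 10 tested; VIM, JDP2, DUSP4 and DDB1 are also given in the other line, and EGR1 was chosen after its values were seen. A gene that this rule would name is not reported here. For each of the genes that changed by at least 1 on the log2 scale with a call in either line, the nearest profiles (prior count 2) were sought among genes with a symbol whose highest group mean was 10 CPM or more. Coordinates come from GENCODE release 29, which holds 58228 of the 63241 identifiers and all 9 genes, and promoters from RefSeq.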

Additional observations from a re-analysis of the deposited data

Results flagged for a closer look

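FOSL1 responded differently in the lines by the test of the difference itself: 1.62 on the log2 scale, TCam-2 minus 2102 EP (edgeR adjusted p = 0.0418). The libraries of 2102 EP were all lower with I-BRD9, and those of TCam-2 overlapped. The call was lost in 13 of 18 alternatives (adjusted p up to 0.131), most of them the omission of a single library. It therefore depends on single libraries as well as on the settings chosen.

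JUND rose in both lines, and its rise in TCam-2 was smaller than that in 2102 EP by 0.40 on the log2 scale (difference −0.40, edgeR adjusted p = 0.0365). That call was lost in 6 of 18 alternatives, each the omission of a single library (adjusted p up to 0.116).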

How the results depend on the processing

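Of 828 values of the 9 genes under the alternatives, 789 kept direction and side of the threshold, 35 lost a call, 1 gained one and 3 changed sign, none of the last called in any fit. The sign changes were ATF3 in the difference of the responses (−0.0153 without TCam-2 DMSO replicate 3, range to 0.204), JUND between the lines with I-BRD9 (0.00685 without 2102 EP I-BRD9 replicate 1, range from −0.114) and DUSP1 between the lines with DMSO (−0.0807 without TCam-2 DMSO replicate 2, range to 0.322). The cause was not tested. No alternative moved a count of called genes over the whole table by more than 1.5 times, and no scaling moved the median of all genes by more than 0.1.

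In the difference of the responses, the number of the 9 genes called higher was 0 with no low-count filter, with limma voom, with a replicate block and with a library-code block, and 0 to 1 when a library was left out, as was the number called lower. The FOSL1 difference had an adjusted p of 0.0796 with the replicate block, 0.0834 with no filter, 0.0559 with limma voom and 0.0864 with the library-code block. Between the lines with I-BRD9, the number called lower was 0 with a replicate block over the 4 groups (FOSB, adjusted p = 0.0529) and 0 to 1 when a library was left out, and with DMSO it was 1 to 2. Whether replicate numbers pair the samples cannot be decided from deviations within groups of 3 libraries. Those of same-numbered I-BRD9 and DMSO libraries correlated at 0.16, 0.0338 and 0.127 in TCam-2 and at −0.119, 0.0961 and −0.0788 in 2102 EP. In neither line did every library correlate best with its own number. The block changed no other call of the 9 genes, and 2224 genes were then called higher and 2437 lower in TCam-2 and 2713 higher and 2774 lower in 2102 EP, against 2389, 2570, 2837 and 2902 without it. Among the other genes named, the block ended the call of DUSP6 in 2102 EP (adjusted p = 0.0564) and those of BATF3 (0.0502) and MRTFA (0.0561) in TCam-2.

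Depth limits the low genes: FOSL1 had 8 to 16 counts per library in TCam-2 and 16 to 58 in 2102 EP, and FOSL2, FOSB and DUSP1 in 2102 EP with DMSO had 14 to 33.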
